A study of Mus musculus with 8 samples.

Results

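The genes described are 9 myosin heavy chains, chosen by name from the deposited table of gene counts: MYH6, MYH7, MYH7B, MYH3, MYH13, MYH9, MYH10, MYH11 and MYH14. All 9 were found among its 33514 rows, and all 9 had at least 1 count. The working name of the set, cardiac and non-muscle heavy chains, is narrower than its members: MYH6 and MYH7 are the cardiac chains and MYH9, MYH10 and MYH14 the non-muscle chains, while MYH3, MYH13 and MYH7B are other striated-muscle chains and MYH11 is the smooth-muscle chain. RNA came from cultured cardiomyocytes, the contractile cells of the heart, of adult C57BL/6 mice. A control siRNA (siN, 4 libraries) or an siRNA against Hoxa5 (siHoxa5, 4 libraries), a homeobox transcription factor, was transfected. Phenylephrine, an alpha1-adrenergic agonist used to induce hypertrophic growth of cardiomyocytes, was added 24 h later at 100 µM for 24 h in both groups. The question put by the design is what targeting Hoxa5 does to the transcripts of cells given phenylephrine. The response to phenylephrine itself was not analysed here. Nothing in the labels ties a repeat to its own mouse or dish, and p-values therefore measure only how far these libraries scatter, which may be technical.

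A myosin heavy chain carries the motor head that binds actin and splits ATP, and a long coiled-coil tail through which molecules assemble into filaments. In the heart, MYH6 encodes the fast alpha chain, which predominates in the adult mouse ventricle, and MYH7 the slower beta chain, which predominates before birth and is re-expressed in hypertrophy. The proportion of the alpha and beta chains sets how fast the sarcomere, the contractile unit of the muscle cell, shortens. Non-muscle myosins work in the cell cortex and in stress fibres of nearly all cell types.

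Library totals were low, 635824 to 658192 counts in siN and 560190 to 619942 in siHoxa5. Hoxa5 was too low to check the knockdown, with 2, 0, 3 and 3 counts in siN 1 to 4 and 1, 3, 4 and 1 counts in siHoxa5 1 to 4. In a principal component analysis of log2 values, siHoxa5 2 and 4 (10.8 and 11.0 on the first component, which held 25.8% of the variance) stood apart from siHoxa5 1 and 3 (2.74 and 4.69), and the siN libraries lay between -7.77 and -6.30. Results that rest on siHoxa5 2 and 4 are given with and without them. Of 18 defining markers of cardiomyocytes, 6 were listed at 0 in all 8 libraries: TNNI3, PLN, MYL2, MYL3, MB and TCAP. Heart muscle transcribes these genes abundantly, and the table spells its symbols in the human way, so a 0 in this table does not show that a transcript was absent. The other 12 had counts, and their summed level with the rest of the list was 30674 to 32650 CPM (counts scaled to a common library size) in siN and 34518 to 39040 CPM in siHoxa5. Most of this sum was 1 gene, TPM1, with means of 21674 CPM in siN and 26441 CPM in siHoxa5. ACTC1 had means of 5538 and 5436 CPM. Of the 10 tested, ATP2A2, TTN, ACTN2 and TPM1 rose, with log2 fold changes of 0.66, 0.51, 0.31 and 0.29, TNNT2 fell by 0.44 (edgeR adjusted p = 0.0257), and 5 did not pass. The TNNT2 call was lost under 9 of 17 alternative analyses, among them leaving out siN 2, 3 or 4 or siHoxa5 2 or 4 (-0.43 to -0.34, edgeR adjusted p = 0.0604 to 0.161). Without siHoxa5 2 and 4 together TNNT2 was at -0.22 (edgeR adjusted p = 0.496). Likewise TTN did not pass once a trend with transcript length and GC content was removed (0.18, edgeR adjusted p = 0.165).

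MYH6 and MYH7 lie beside each other on mouse chromosome 14, both on the minus strand. In the GENCODE M21 annotation of GRCm38, Myh6 (ENSMUSG00000040752.16) spans chr14:54941921-54966927 and Myh7 (ENSMUSG00000053093.16) spans chr14:54970684-54994626, with 3756 bases between them. Their coding sequences were identical at 5325 of 5799 aligned bases (91.8%). No other member shared a stretch of 50 bases with either. The longest stretch that Myh6 and Myh7 share is 245 coding bases, shown because a read from inside it fits both genes. It spans exons 30 and 31 of Myh6 (chr14:54948327-54948725, with the intron between them) and exons 32 and 33 of Myh7 (chr14:54974947-54975347), in the tail of the protein. In the line below it is written 5′ to 3′ in the sense of both genes, with no base in capitals because none differs.
Myh6 and Myh7, shared stretch: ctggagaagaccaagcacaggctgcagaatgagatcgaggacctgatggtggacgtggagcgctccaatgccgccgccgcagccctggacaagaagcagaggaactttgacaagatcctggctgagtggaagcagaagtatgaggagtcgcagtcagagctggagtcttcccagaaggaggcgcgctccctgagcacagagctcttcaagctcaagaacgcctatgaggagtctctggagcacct
Of all 50-base windows of the Myh6 coding sequence, 23.8% also occurred in Myh7. The share was 12.0% for windows of 100 bases and 5.83% for windows of 150 bases.

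The next pair of lines shows the 90-base window where the 2 genes differ most, with differing bases in capitals. In Myh6 it covers parts of exons 24 and 25 (chr14:54952277-54952603), in Myh7 parts of exons 26 and 27 (chr14:54980352-54982195). It differs at 33 bases, so a read from here can be assigned to 1 gene.
Myh6: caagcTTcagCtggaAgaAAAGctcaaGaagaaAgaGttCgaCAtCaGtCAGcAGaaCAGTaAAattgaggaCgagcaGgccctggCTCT
Myh7: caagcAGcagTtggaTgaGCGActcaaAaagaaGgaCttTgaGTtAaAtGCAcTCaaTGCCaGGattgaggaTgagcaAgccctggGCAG
Across 383 windows of 90 bases placed every 15 bases, the lowest identity was 64.4%, the median was 94.4%, and 50 windows were fully identical. The sources used here do not give how the authors counted reads that fit both genes. Reads from such stretches could be shared, assigned to 1 gene or dropped, so the MYH6 and MYH7 values below carry that uncertainty.

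**Figure D1:**
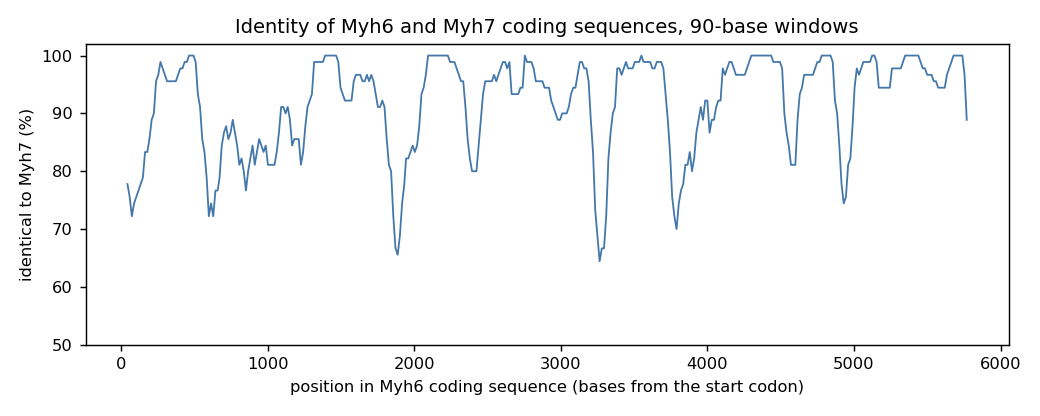
Percentage of identical bases between the Myh6 and Myh7 coding sequences (vertical axis, which starts at 50) in 90-base windows placed every 15 bases, against the coding position of the window centre in bases (horizontal axis). Identity ran from 64.4% to 100%, with a median of 94.4%, and 50 of 383 windows were fully identical.

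Both cardiac chains were higher in siHoxa5 than in siN. MYH6 measured 20664, 21589, 22135 and 22620 CPM in siN 1 to 4 and 29247, 30825, 29388 and 32269 CPM in siHoxa5 1 to 4. Every siHoxa5 library lay above every siN library. The mean rose from 21752 ± 839 to 30432 ± 1417 CPM (SD, n = 4 each), or 0.48 on the log2 scale (SE 0.04, edgeR quasi-likelihood test with Benjamini-Hochberg adjustment over 3020 genes, adjusted p = 1.15e-19). The alpha chain thus stood at 1.40 times its siN level. The spread among libraries, 3.86% of the mean in siN and 4.66% in siHoxa5, was larger than the 0.846% and 0.753% that counting alone would give. In bulk RNA, a change in the number of cells of a type and a change in RNA per cell cannot be told apart.

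MYH7 measured 24184, 24955, 24830 and 25112 CPM in siN 1 to 4 and 28036, 29692, 29501 and 30173 CPM in siHoxa5 1 to 4. Again the lowest siHoxa5 library was above the highest siN library. The mean rose from 24770 ± 407 to 29350 ± 921 CPM (SD, n = 4 each), or 0.24 on the log2 scale (SE 0.04, edgeR adjusted p = 1.49e-06). The beta chain stood at 1.18 times its siN level. The call held for both cardiac chains under all 17 alternatives, with log2 fold changes of 0.44 to 0.50 for MYH6 and 0.22 to 0.27 for MYH7. An antisense RNA, Mhrt (chr14:54968678-54974349, plus strand), overlaps Myh7 exons at 463 bases, 38.1% of its own exonic bases and 7.4% of the Myh7 transcript. The kit named in the labels does not mark strand, so reads of Mhrt and Myh7 from those bases cannot be told apart.

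Of the 9 members, 7 passed the filter on low counts (MYH7B and MYH14 did not). By an adjusted p under 0.05, 4 of these rose (MYH6, MYH7, MYH3 and MYH13), 0 fell and 3 did not pass (MYH9, MYH10 and MYH11). At an unadjusted p under 0.05, 1 of these 3 was lower (MYH9) and 1 was higher (MYH10). The share of all tested genes at that unadjusted threshold, used again for some lists below, was not computed. By adjusted p, 7.12% of all 3020 genes tested passed, 3.74% higher and 3.38% lower. The groups did not overlap for 4 of the 7 members, with MYH6, MYH7 and MYH13 higher and MYH9 lower in siHoxa5, against 12.0% of all tested genes (6.19% higher and 5.76% lower).

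**Figure D2:**
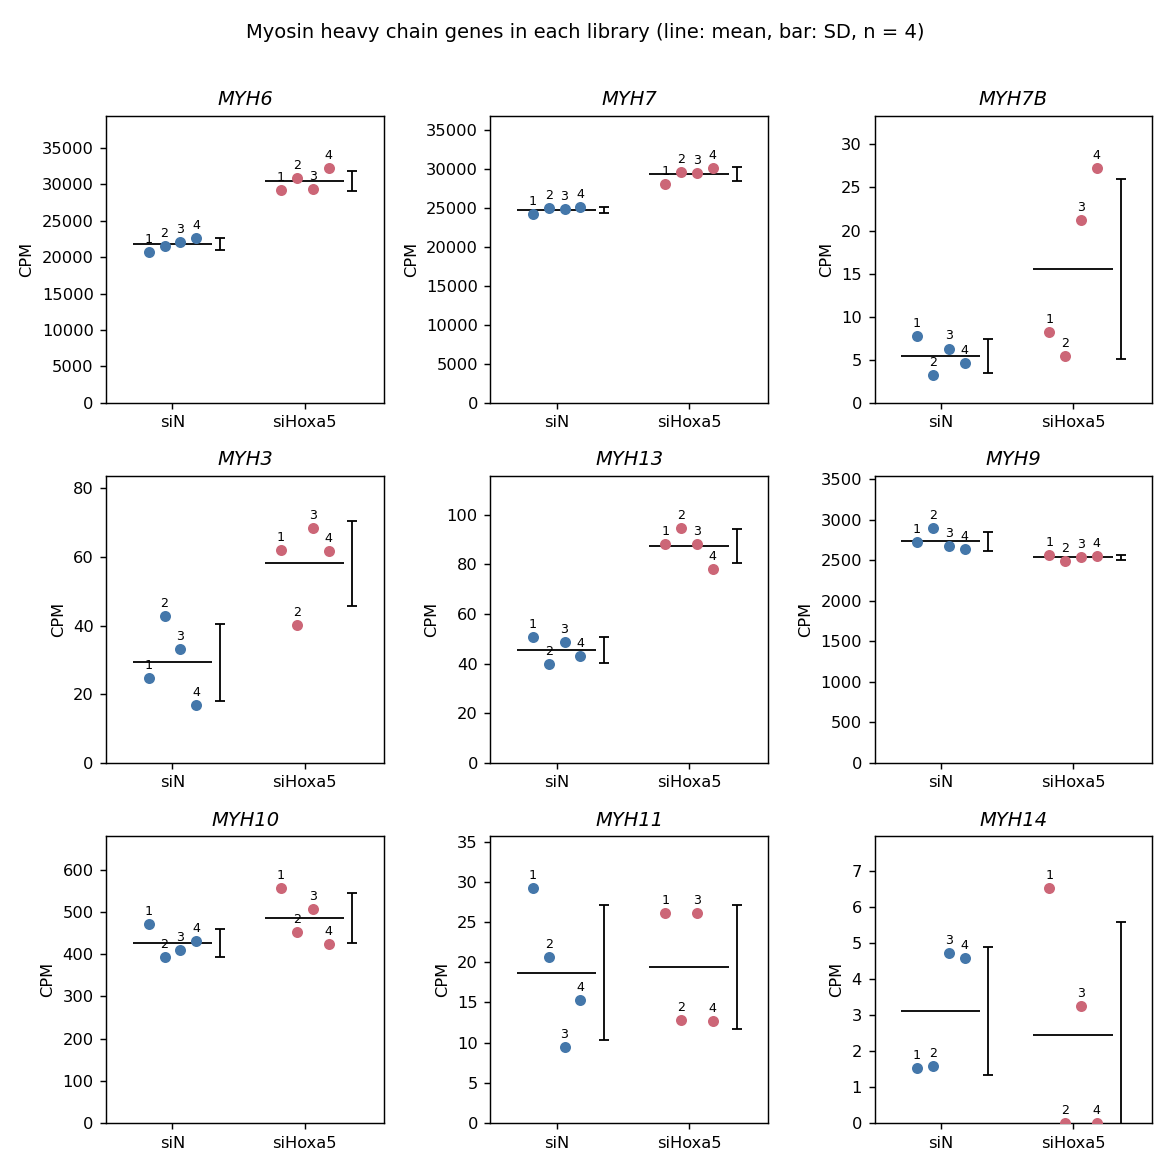
Level in CPM (vertical axes, each starting at 0) of the 9 myosin heavy chain genes, 1 panel a gene, with a numbered point for each library, a line at the group mean and a bar for the SD (n = 4). The groups are apart for MYH6, MYH7, MYH13 and, narrowly, MYH9, and they overlap for MYH3, MYH10, MYH11, MYH7B and MYH14.

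Together the members took 4.94% ± 0.111 of a library's counts in siN and 6.17% ± 0.108 in siHoxa5 (SD, n = 4 each). Nearly all of this was MYH6 and MYH7, at 93.4% of member counts in siN and 94.9% in siHoxa5. MYH6 made up 46.1%, 46.4%, 47.1% and 47.4% of the MYH6 and MYH7 counts in siN 1 to 4, so the beta chain was the more counted of the pair in all siN libraries. In siHoxa5 1 to 4 it made up 51.1%, 50.9%, 49.9% and 51.7%. The 95% Wilson intervals ran from 45.5% to 47.9% over the siN libraries and from 49.4% to 52.2% over the siHoxa5 libraries, and cover counting error only. The ratio of MYH6 to MYH7 counts was 0.878 ± 0.0218 in siN and 1.04 ± 0.0303 in siHoxa5 (SD, n = 4 each), with no overlap between the groups. Its log2 difference was 0.24 (SE 0.03, two-sided exact permutation test, p = 0.0286, Benjamini-Hochberg adjusted p = 0.0786 over 22 ratios). With 70 assignments of 8 libraries to the groups, 0.0286 is the smallest p this test can give. Without siHoxa5 2 and 4 the log2 difference was 0.22.

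**Figure D3:**
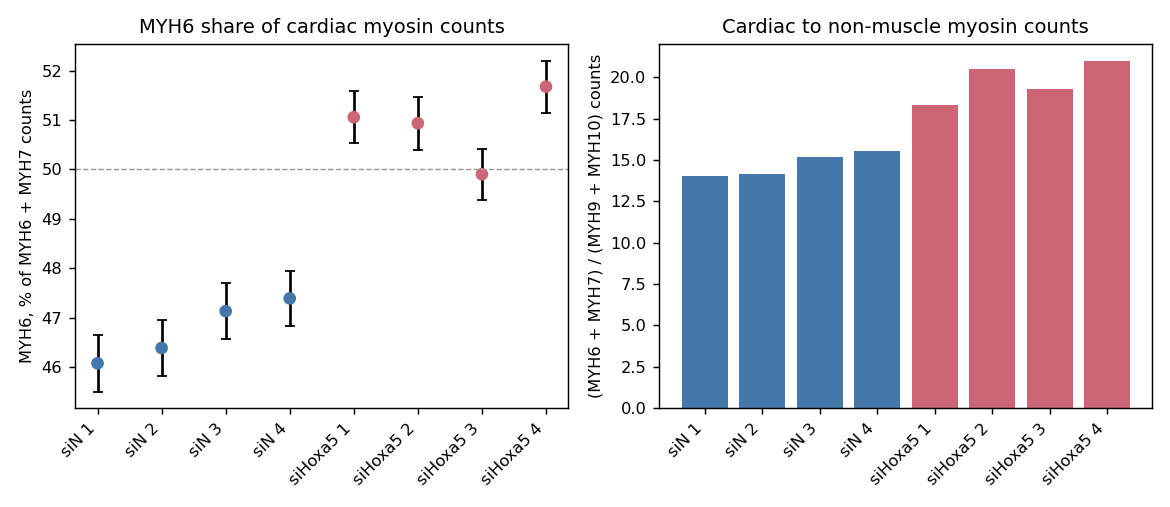
Left, MYH6 as a percentage of MYH6 plus MYH7 counts in each library with its 95% Wilson interval, on an axis that does not start at 0 and with a dashed line at equal counts. Right, MYH6 plus MYH7 counts over MYH9 plus MYH10 counts in each library, from 14.0 to 15.6 in siN and from 18.3 to 21.0 in siHoxa5.

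The regions just before the start sites of Myh6 and Myh7 are shown because both transcripts rose. They come from the RefSeq promoter table of GRCm38.p6, on the minus strand, written 5′ to 3′. The Myh6 region is chr14:54966642-54966857 and the Myh7 region chr14:54994627-54994876, each ending where the first exon of the main transcript begins. Another annotated Myh6 transcript starts farther upstream, so that the Myh6 region is also part of its intron. Capitals mark GGAATG, the reverse complement of CATTCC, the core of the MCAT element bound by TEAD factors. Counted from the RefSeq start site, it begins at -206 in Myh6 and, for the more upstream Myh7 entry, at -201. The window of the other Myh7 entry, which starts farther downstream, held no match.
Myh6: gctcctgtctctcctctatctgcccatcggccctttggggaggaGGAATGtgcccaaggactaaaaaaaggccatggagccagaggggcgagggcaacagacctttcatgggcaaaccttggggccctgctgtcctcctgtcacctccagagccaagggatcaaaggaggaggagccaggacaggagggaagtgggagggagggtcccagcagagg
Myh7: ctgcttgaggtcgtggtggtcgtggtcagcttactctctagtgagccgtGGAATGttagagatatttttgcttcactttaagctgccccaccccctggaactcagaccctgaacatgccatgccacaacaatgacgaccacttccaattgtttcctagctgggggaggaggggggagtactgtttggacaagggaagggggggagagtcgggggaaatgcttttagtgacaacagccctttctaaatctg
CATTCC or its reverse complement occurred in 14.7% of 32851 RefSeq promoter windows of 300 bases. A search of both strands was also made for the TATA box, spelled TATAAA, which 13.6% of those windows held. The GATA element was searched for with the letters AGATAA, found in 11.2% of windows. The core bound by homeodomain factors, spelled TAAT, is short and occurred in 58.0% of windows. The half-site of nuclear receptors, spelled AGGTCA, occurred in 16.3% of windows. No match in a member overlapped a match of another motif. In the 300-base windows, Myh6 held TATAAA 2 bases past its RefSeq start, and TAAT matched in Myh14 alone among the members in the table. Besides Myh6 and Myh7, the MCAT core matched in Myh10 (at -7), whose transcript did not pass the test. It matched in neither Myh3 nor Myh13, whose transcripts rose. Of the 9 members, 8 matched an entry, and Myh11 did not. These matches describe letters in a window, and binding was not measured.

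MYH3 and MYH13, chains best known from skeletal muscle, were counted at far lower levels. In siHoxa5 they stood at 1.98 and 1.92 times their siN means. Summed over the siN libraries they had 75 and 117 counts, against 55864 for MYH6 and 63612 for MYH7. The longest identical coding stretch with either cardiac chain was 42 bases for MYH3 and 47 bases for MYH13. Whether reads of MYH6 or MYH7 were counted for MYH3 or MYH13 was not tested. MYH3 encodes the embryonic chain (Myh3, chr11:67078300-67102291, plus strand), used in developing and regenerating muscle. It had 16, 27, 21 and 11 counts in siN 1 to 4, or 24.6, 42.9, 33.1 and 16.9 CPM. In siHoxa5 1 to 4 it had 38, 22, 42 and 34 counts, or 62.0, 40.1, 68.5 and 61.8 CPM. The groups overlapped, because siHoxa5 2 lay below siN 2. The mean rose from 29.3 ± 11.2 to 58.1 ± 12.4 CPM (SD, n = 4 each), or 0.99 on the log2 scale (SE 0.24, edgeR adjusted p = 0.00238). Across 17 alternatives the change ran from 0.80 to 1.23 and passed each time, with a highest adjusted p of 0.0454.

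MYH13 encodes the extraocular chain (Myh13, chr11:67321658-67371586, plus strand), known from the fast muscles that move the eye. It measured 50.8, 39.7, 48.8 and 42.9 CPM in siN 1 to 4, from 33, 25, 31 and 28 counts. In siHoxa5 1 to 4 it measured 88.2, 94.7, 88.0 and 78.2 CPM, from 54, 52, 54 and 43 counts, all above the highest siN library. The mean rose from 45.5 ± 5.13 to 87.3 ± 6.81 CPM (SD, n = 4 each), or 0.94 on the log2 scale (SE 0.19, edgeR adjusted p = 0.000197). The spread among libraries, 11.3% and 7.80% of the mean, was below the 18.5% and 14.0% expected from counting alone. Myh3 and Myh13 lie on the same chromosome as the other skeletal-muscle chains, and 2.93% of the 50-base windows of Myh3 also occurred in Myh13. MYH3 and MYH13 did not differ detectably in how much they moved (log2 ratio difference 0.10, SE 0.38, two-sided exact permutation test, p = 0.743). That standard error leaves room for a sizeable difference.

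The remaining sarcomeric heavy chains were close to undetected. Of 6 listed, 5 were in the table and 0 passed the filter. MYH8 and MYH15 were at 0, and MYH1, MYH2 and MYH4 had 14, 21 and 5 counts over all 8 libraries. Their summed level was 3.06 to 6.35 CPM in siN and 6.52 to 18.2 CPM in siHoxa5, where 3 counts in a library are worth 4.60 to 5.46 CPM.

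MYH7B, an ancient striated-muscle chain related to MYH7 (Myh7b, chr2:155611212-155634307, plus strand), was near the limit of detection. It had 5, 2, 4 and 3 counts in siN 1 to 4 and 5, 3, 13 and 15 counts in siHoxa5 1 to 4. Per library size, siHoxa5 3 and 4 (21.2 and 27.3 CPM) lay far above the highest siN library (7.69 CPM), siHoxa5 1 just above it (8.16 CPM) and siHoxa5 2 within the siN range (5.46 CPM). Summed over libraries, 14 counts stood against 36, a ratio of rates of 2.84 (95% interval 1.5 to 5.7, counting error only). A fit without the filter put the change at 1.48 on the log2 scale (SE 0.51, edgeR adjusted p = 0.129), which did not pass. The fit without the filter called 2.07% of 7924 genes.

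The 3 genes MYH6, MYH7 and MYH7B each host microRNAs in an intron, shown here because 2 of them share a seed (bases 2 to 8, in capitals). miR-208a lies in intron 29 of Myh6 (chr14:54949072-54949093), miR-208b in intron 31 of Myh7 (chr14:54975710-54975731) and miR-499 in intron 19 of Myh7b (chr2:155622893-155622913). They are known to take part in the control of heavy chain choice in muscle. Sequences are from RefSeq, GRCm38.p6, and mature microRNAs were not measured in these poly(A)-selected libraries.
miR-208a-3p: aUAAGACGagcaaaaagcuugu
miR-208b-3p: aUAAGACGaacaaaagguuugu
miR-499-5p: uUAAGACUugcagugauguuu

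Neither of the non-muscle chains that could be tested passed the threshold. MYH9 encodes non-muscle myosin IIA (Myh9, chr15:77760587-77842175, minus strand), which drives contraction of stress fibres and the cell cortex. It measured 2725, 2900, 2676 and 2636 CPM in siN 1 to 4 and 2570, 2497, 2540 and 2554 CPM in siHoxa5 1 to 4. Each siHoxa5 library was below each siN library, by little. The means were 2734 ± 116 and 2540 ± 31.1 CPM (SD, n = 4 each), or -0.11 on the log2 scale (SE 0.05, edgeR adjusted p = 0.214), so MYH9 did not pass the test.

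MYH10 encodes non-muscle myosin IIB (Myh10, chr11:68691559-68816632, plus strand), an isoform of slower motor kinetics that cardiomyocytes also express. It measured 472, 394, 411 and 430 CPM in siN 1 to 4 and 557, 454, 507 and 424 CPM in siHoxa5 1 to 4. The groups overlapped, with siHoxa5 1 and 3 above all siN libraries and siHoxa5 2 and 4 within the siN range. The means were 427 ± 33.8 and 485 ± 58.8 CPM (SD, n = 4 each), or 0.19 on the log2 scale (SE 0.08, edgeR adjusted p = 0.168). Without siHoxa5 2 and 4 the value was 0.32 (SE 0.09, edgeR adjusted p = 0.00974) and passed, in a comparison that called 4.45% of 3216 genes. MYH14, non-muscle myosin IIC (Myh14, chr7:44605803-44670843, minus strand), had 1, 1, 3 and 3 counts in siN 1 to 4 and 4, 0, 2 and 0 counts in siHoxa5 1 to 4. Its ratio of rates was 0.83 (95% interval 0.237 to 2.72, counting error only), so a difference was not detectable at this depth.

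MYH11 encodes the smooth-muscle chain (Myh11, chr16:14194535-14291372, minus strand), a marker of vessel walls. It had 19, 13, 6 and 10 counts in siN 1 to 4 and 16, 7, 16 and 7 counts in siHoxa5 1 to 4, with fully overlapping groups. The means were 18.7 ± 8.40 and 19.4 ± 7.72 CPM (SD, n = 4 each), or 0.08 on the log2 scale (SE 0.35, edgeR adjusted p = 0.94). Other smooth-muscle and pericyte markers were near or at 0: of 13 listed, 7 were at 0, among them CNN1, LMOD1 and MYOCD, while ACTA2 had 1 and TAGLN 2 counts over all libraries. Their summed level was 264 to 297 CPM in siN and 233 to 286 CPM in siHoxa5, most of it SMTN and DES, which cardiomyocytes also express. Neither passed (0.04 for SMTN and -0.15 for DES).

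Fibroblasts also express the non-muscle chains. Of 14 fibroblast markers, LUM, TCF21 and MFAP5 were at 0, and DCN, PDGFRA, THY1, COL3A1 and POSTN had 1, 1, 2, 7 and 21 counts over all 8 libraries. COL1A1, a collagen chain, rose from 8861 ± 166 to 10284 ± 725 CPM (SD, n = 4 each), or 0.21 on the log2 scale (edgeR adjusted p = 0.000195). It was the 1 of 6 tested markers to pass. COL1A2 (0.15, edgeR adjusted p = 0.621) and GSN (-0.46, edgeR adjusted p = 0.51) did not, although COL1A2, like MYH10, passed without siHoxa5 2 and 4 (0.33, edgeR adjusted p = 0.000638). The summed fibroblast level was 10396 to 11118 CPM in siN and 11123 to 13053 CPM in siHoxa5, nearly all of it COL1A1 and COL1A2 (8861 and 1673 CPM on average in siN). VIM (0.04), DDR2 (0.12) and FBLN1 (-0.16) did not pass. Its part in the MYH9 and MYH10 values was not tested. Of 11 endothelial markers 8 were at 0 (summed level 14.2 to 31.7 CPM in siN and 3.64 to 34.3 CPM in siHoxa5), and of 12 macrophage and leukocyte markers 9 were at 0 (0 to 1.57 CPM and 0 to 1.82 CPM).

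**Figure D4:**
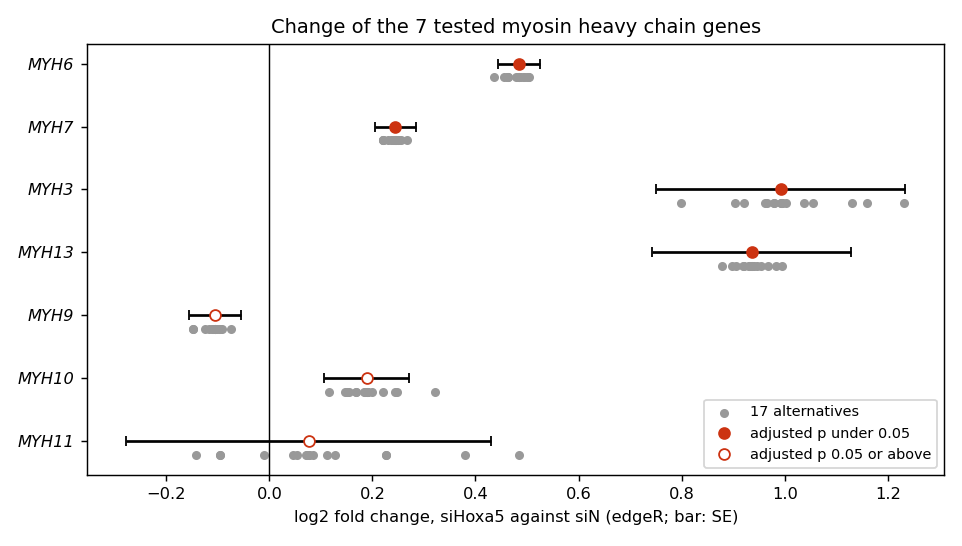
Log2 fold change of each of the 7 tested members, siHoxa5 against siN, with a bar for its standard error. Filled circles have an adjusted p under 0.05, open circles do not, and grey points are the 17 alternatives. MYH6, MYH7, MYH3 and MYH13 are above 0 throughout, MYH9 is below 0, MYH10 runs from 0.12 to 0.32, and MYH11 crosses 0.

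Ratios within a library compare members without the scaling between libraries. The ratio of MYH6 plus MYH7 to MYH9 plus MYH10 was 14.7 ± 0.772 in siN and 19.8 ± 1.20 in siHoxa5 (SD, n = 4 each). Its log2 difference was 0.42 (SE 0.06, two-sided exact permutation test, p = 0.0286, adjusted p = 0.0786), and 0.35 without siHoxa5 2 and 4. On the log2 scale, the ratio to MYH9 was higher in siHoxa5 by 0.59 for MYH6 (SE 0.06), 0.35 for MYH7 (SE 0.04), 1.05 for MYH13 (SE 0.12) and 1.15 for MYH3 (SE 0.31). In each of these 4 ratios the groups did not overlap. Within the pair of abundant non-muscle chains, the ratio of MYH9 to MYH10 was 6.44 ± 0.686 in siN and 5.29 ± 0.611 in siHoxa5. The groups of that ratio overlapped, and its log2 difference of -0.29 (SE 0.11) had a two-sided exact permutation p = 0.0571. Without siHoxa5 2 and 4 it was -0.42. Against MYH10, MYH6 differed by 0.30 (SE 0.14, p = 0.114) and MYH7 by 0.06 (SE 0.13, p = 0.657) in the same exact permutation test. The ratio of MYH7 to MYH13 differed by -0.70 on the log2 scale (SE 0.11), and that of MYH6 to MYH13 by -0.46 (SE 0.13, exact permutation p = 0.0571). Of the 22 ratios computed, 8 reached an unadjusted p = 0.0286 in the exact permutation test and 0 passed after adjustment, where the smallest adjusted p was 0.0786.

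Between genes, levels can be set side by side only per length, here as CPM per kilobase of the longest coding mouse transcript. The annotation used for counting is not given, so the length that was counted may differ from this one. The order of MYH6 and MYH7 also carries the uncertainty of reads that fit both. In siN the order was MYH7 (3976 ± 65.4), MYH6 (3558 ± 137), MYH9 (368 ± 15.7), MYH10 (54.8 ± 4.34), MYH13 (7.51 ± 0.847), MYH3 (4.87 ± 1.85), MYH11 (2.85 ± 1.28), MYH7B (0.883 ± 0.320) and MYH14 (0.479 ± 0.275), with SD over n = 4. In siHoxa5 MYH6 stood at 4978 ± 232 and MYH7 at 4711 ± 148 CPM per kilobase, and the order of the rest was the same, from MYH9 at 342 ± 4.18 to MYH14 at 0.377 ± 0.481. The siN libraries of MYH7 (3882 to 4031) did not overlap those of MYH6 (3380 to 3700). In siHoxa5 the ranges of the pair overlapped, at 4784 to 5279 for MYH6 and 4500 to 4843 for MYH7, although MYH6 was the higher of the pair within each of the 4 libraries. MYH13 and MYH3 overlapped in siN and not in siHoxa5, where MYH13 ran from 12.9 to 15.6 and MYH3 from 6.64 to 11.4. MYH3 and MYH11 overlapped in siN, MYH11 and MYH7B in siHoxa5, and MYH7B and MYH14 in both groups.

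Among 1431 genes with a mean of at least 100 CPM, those most like each abundant member were taken as the smallest root mean square difference of log2 CPM over the 8 libraries, each gene centred on its own mean. For MYH6 these were FHL1 (0.079), a LIM-domain protein of striated muscle, BZW2 (0.083), C3orf58 (0.085) and PTPRD (0.093). All 4 were higher in siHoxa5, with log2 fold changes of 0.60, 0.40, 0.45 and 0.56. That direction was largely set by the choice, because likeness to MYH6 takes in its difference between the groups. PTPRD did not pass without siHoxa5 2 and 4 (0.47, edgeR adjusted p = 0.0624). For MYH7 they were NUFIP2 (0.045), PRRC2A (0.047), CPSF6 (0.048) and IQSEC2 (0.049). For MYH9 they were RBM25 (0.031), SYNCRIP (0.038), CELF1 (0.044) and C6orf106 (0.046), none of which passed the test. The first 3 encode RNA-binding proteins. For MYH10 they were SOX12 (0.077), OLFM1 (0.086), COL1A2 (0.086) and ARHGAP35 (0.087), none of which passed. The points share libraries and depth, and each choice takes in the group difference, so likeness is a description of these 8 libraries.

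Genes that act with the heavy chains were mostly below the test's threshold. Light chains bind the neck of each heavy chain and tune its motor, and 8 of the 13 in the table were at 0, among them the ventricular MYL2 and MYL3 and the atrial MYL4 and MYL7. The 2 that could be tested, MYL6 (-0.10, edgeR adjusted p = 0.656) and MYL9 (0.50, edgeR adjusted p = 0.202), partner smooth-muscle and non-muscle chains and did not pass. Of 10 thick-filament binding proteins 3 were tested. TTN, a giant spring of the sarcomere, rose from 462 ± 56.0 to 658 ± 60.2 CPM (SD, n = 4 each). MYBPC3 (0.50, edgeR adjusted p = 0.138) and MYOM1 (0.47, edgeR adjusted p = 0.519) did not pass. With the length and GC trend removed TTN was at 0.18 (edgeR adjusted p = 0.165), and none of the 3 passed. HSP90AA1 (0.04) and TRIM54 (-0.23), from 8 folding and assembly factors, did not pass either.

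Among partners of non-muscle myosin in stress fibres and cortex, 13 of 19 listed genes were tested, 1 rose and 1 fell. ACTN1, the non-muscle alpha-actinin that cross-links actin, fell from 2302 ± 7.42 to 1737 ± 170 CPM (SD, n = 4 each), or -0.40 on the log2 scale (SE 0.05, edgeR adjusted p = 1.58e-09). VCL, vinculin of cell adhesions, rose by 0.20 (SE 0.05, edgeR adjusted p = 0.00991), a call lost without siN 3 (0.18, edgeR adjusted p = 0.0829) or siN 4 (0.19, edgeR adjusted p = 0.055) and in DESeq2. CNN3, calponin 3, was at -0.80 (edgeR adjusted p = 0.0768). Of 17 kinases, phosphatase subunits and related regulators that set light-chain phosphorylation, 8 were tested and 0 passed in edgeR, with 2 higher and 1 lower at an unadjusted p under 0.05. PPP1CB (-0.18, edgeR adjusted p = 0.0544), PPP1R12B (0.66, edgeR adjusted p = 0.053) and ROCK1 (0.24, edgeR adjusted p = 0.159) were the nearest. Without siHoxa5 1, PPP1R12B (0.76, edgeR adjusted p = 0.0222) and ROCK1 (0.31, edgeR adjusted p = 0.0494) passed. Without siHoxa5 4, PPP1R12B (0.74, edgeR adjusted p = 0.0284) and PPP1CB (-0.19, edgeR adjusted p = 0.0464) did. PPP1CB also passed with the length and GC trend removed (-0.23, edgeR adjusted p = 0.00855). Of 24 unconventional myosins, motors that work outside filaments, 4 were tested and 0 passed in edgeR (MYO9A at 0.50 and MYO18A at 0.28 among them), with 1 higher at an unadjusted p under 0.05.

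Of 32 transcriptional regulators of cardiac myosin genes, 19 were tested, 2 rose and 0 fell. THRA, the thyroid hormone receptor that activates Myh6 and represses Myh7 when hormone is bound, rose from 420 ± 43.7 to 575 ± 59.4 CPM (SD, n = 4 each), or 0.45 on the log2 scale (SE 0.08, edgeR adjusted p = 1.02e-05). Its exons share 263 bases with Nr1d1 on the other strand, and reads from those bases cannot be told apart. Counts were per gene, so splice forms of THRA were not separated either. MEF2C, a MADS-box factor of muscle genes, rose from 331 ± 30.6 to 428 ± 32.6 CPM, or 0.37 on the log2 scale (SE 0.09, edgeR adjusted p = 0.00173). The list's median log2 fold change was 0.03, against -0.0037 over all tested genes. TBX5, TBX20, TEAD2, MYOCD and NFATC1 were at 0. The medians of the other lists were 0.30 for cardiomyocyte markers (10 tested) and -0.03 for non-muscle partners (13 tested). Over 2 to 8 tested genes each, they were 0.50 for thick-filament binding proteins, 0.25 for unconventional myosins and 0.20 for light chains. Also over so few genes, they were 0.08 for fibroblast markers and 0.04 for light-chain kinases and phosphatase. Those of smooth-muscle markers and folding factors were -0.05 and -0.10.

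**Figure D5:**
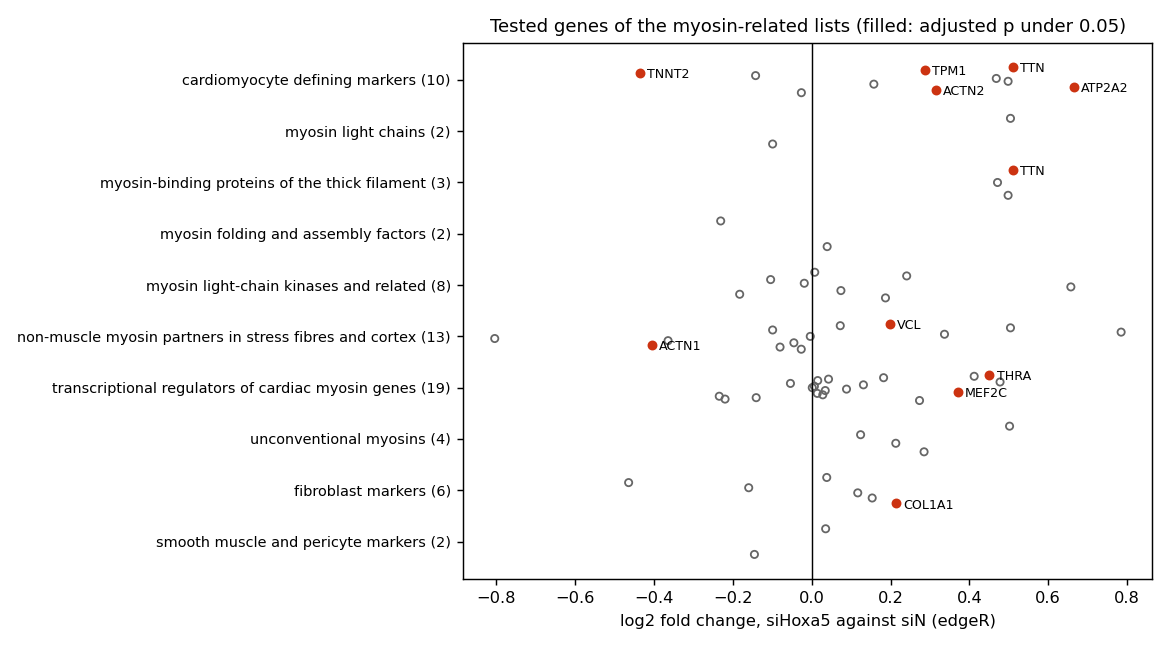
Log2 fold change, siHoxa5 against siN (horizontal axis), of every tested gene in each list of related genes or cell type markers, with the number tested in brackets. Filled and named points have an adjusted p under 0.05: 4 higher and 1 lower of 10 cardiomyocyte markers, 2 higher of 19 regulators, 1 higher and 1 lower of 13 non-muscle partners, 1 higher of 6 fibroblast markers and 1 higher of 3 thick-filament binding proteins. TTN stands in 2 lists.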

How the data were processed

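RNA-seq counts of 8 libraries, 4 siN and 4 siHoxa5 by their titles, were used. The authors deposited estimated counts without normalization. Values were whole except in 4 rows, which were rounded. The tools listed are STAR 2.6.1b, HTSeq, FastQC 0.11.8 and R 3.5.3, with the mm10 build, per the submitters' processing notes. The sources used here give no annotation, strand setting or rule for multi-mapped reads. Symbols follow human spelling, and 16245 of 33514 rows matched a mouse symbol when case was ignored. Mouse coordinates and lengths were attached by name from GENCODE M21.

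All 8 libraries entered 1 edgeR 4.0.16 quasi-likelihood fit (limma 3.58.1, R 4.3.3; robust, TMM scaling, group as the only term), after a filter (minimum count 10, minimum total 15) that kept 3020 genes with 98.6% of the counts. Adjusted p-values are Benjamini-Hochberg over these genes, with a threshold of 0.05. CPM uses TMM-scaled library sizes. Log2 ratios between members were compared by an exact permutation test over 70 assignments and adjusted over 22 ratios. The fit was tested on simulated data. No 2 libraries of a group agreed within sampling noise (chi-square per degree of freedom 1.35 to 2.60), so none was treated as a copy and all were kept. This does not show that they came from separate mice or dishes. DESeq2 1.42.0, limma-voom, other scaling, no filter, left-out libraries, the replicate number as a block, and removal of a trend with length and GC content (2898 genes with values, loess span 0.5) were alternatives.

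The members and gene lists were chosen with earlier results of these data known. Named genes are all members, and from each list those past the threshold (at most 5) or, where fewer than 3 passed, further tested genes in order of p up to 3. Also named are the 4 genes most like MYH6, MYH7, MYH9 and MYH10. A few genes selected by this rule are left out. Markers named at or near 0, VIM, DDR2 and FBLN1 were chosen after their values were seen.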

Additional observations from a re-analysis of the deposited data

Results flagged for a closer look

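In the siHoxa5 group, the log2 ratio of MYH6 to MYH13 was 8.69 in library 4 and 8.35, 8.37 and 8.38 in the other libraries. The gap to its neighbour was 0.893 of the group's range, above Dixon's 95% critical value for 4 samples. MYH13 had 43 counts in that library and 52 to 54 in the others, and MYH6 was at its highest level there, 32269 CPM. Of 62 groups of 4 values checked in this way, 1 held such a library, and chance alone marks about 1 in 20 groups.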

How the results depend on the processing

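Across 17 alternatives, MYH6, MYH7, MYH3 and MYH13 kept their direction and passed the threshold each time. MYH11 did not pass under any and ran from -0.14 to 0.38 with 1 library left out. The number of genes called, 215 of all tested, was 109 with DESeq2, 143 without siHoxa5 2 and 4, and 145 to 260 with 1 library left out, while 4 members passed in each of the last. MYH10 passed without siHoxa5 2 and 4 (0.32, edgeR adjusted p = 0.00974, with a range of 0.00974 to 0.492 over all alternatives). MYH9 passed with the length and GC trend removed and the replicate block (-0.15, edgeR adjusted p = 0.0462), not with the trend removed alone (0.0556). The causes were not tested. The log2 differences of the MYH6 to MYH7, MYH9 to MYH10 and cardiac to non-muscle ratios ran from 0.22 to 0.26, from -0.35 to -0.22 and from 0.40 to 0.46 with 1 library left out.

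Same-numbered libraries did not clearly deviate together (correlations of -0.02 to 0.07, and not every library correlated best with its own number). No pairing by number was detected. At this depth sampling noise can hide one, so these values do not show that the samples are unpaired. With the replicate block 250 genes were called, again with 4 members higher, and PPP1CB (-0.18, edgeR adjusted p = 0.0474, or 0.0062 with the length and GC trend also removed) and PPP1R12B (0.65, edgeR adjusted p = 0.0437) passed. The ratios kept their values, and a sign-flip test over pairs gave its smallest possible p, 0.125.

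Values near 0 changed sign for HSP90AA1 (-0.0083 to 0.077 with 1 library left out, -0.029 without siHoxa5 2 and 4), TRIM54 (0.0063 without siHoxa5 2 and 4), MYL6 (0.0094 with the length and GC trend removed, 0.0091 with the block added) and SMTN (-0.077 to 0.13 with 1 library left out). None of these passed in any alternative. Members with few counts are limited by depth: 1 count is worth 1.53 to 1.82 CPM.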
